A study of Mus musculus with 8 samples.

Results

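Reads on nuclear transfer RNAs (tRNAs) for alanine, valine, leucine, isoleucine and methionine were examined in the testis small RNA of mice on a standard or a Western-like diet. The members were all nuclear tRNA entries of the count table whose names carry 1 of these 5 amino acids: 109 of 362 nuclear tRNA entries and of 20558 small RNAs in all. An entry stands for 1 tRNA gene copy and is named by chromosome, number, amino acid and anticodon, as in chr1.tRNA698-LeuCAG. Alanine (Ala) had 34 copies, leucine (Leu) 24, valine (Val) 20, methionine (Met) 17 and isoleucine (Ile) 14, under 14 anticodons. The comparison asked whether the amount of these RNAs in the father's testis differed with diet. All 8 animals were adult C57Bl/6 males, 1 testis total RNA library each, extracted with Trizol and prepared with the SOLiD total RNA-seq kit. The control (SD) mice were M1N, M2N, TN1 and TN2, and the experimental (WD) mice M1W, M2W, M3W and M5W, as their sample titles give them. The growth protocol attached to every sample, controls included, describes a lipid-rich diet from 4 weeks of age and mating at 4 months, so groups were taken from the titles. What sets the SD names beginning with M apart from those beginning with TN is not given in the sources used here.

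Total counts were 3248708 in M1N, 3253798 in M2N, 3101032 in TN1 and 2064562 in TN2. In WD mice they were 2931793 in M1W, 2290920 in M2W, 2159625 in M3W and 3092399 in M5W. A count of 0 at these depths allows a level of up to 0.933 to 1.39 CPM, taken as 3 counts. CPM are counts scaled to a common library total, here with TMM factors. These are reads after PCR, not independent molecules, so such floors cover counting error only. The table holds entries with at least 9 counts over the 8 mice.

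A tRNA reads a codon of the messenger RNA through its anticodon and carries the matching amino acid to the ribosome. Alanine, valine, leucine and isoleucine have plain hydrocarbon side chains, and methionine, with a sulphur atom in its chain, starts every protein through an initiator tRNA of its own. Most tRNAs have several gene copies, some of them identical and others less alike, transcribed by RNA polymerase III, and fragments of tRNAs occur in small RNA of testis and sperm.

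M1N, and after it M2N, stood apart from the other libraries over all small RNAs. The first principal component, with 47.3% of the variance, placed M1N at -73 and M2N at -35.4, while the remaining 6 animals spanned 4.42 to 34.5. For this reason the comparisons were also made without M1N and against each pair of SD mice. Germ cell miRNAs were present in all 8 testes, where the 5 of the list summed to between 13122 and 17999 CPM, led by miR-34c-5p. Members of that list differed: miR-449a-5p stood at 2299 CPM in M1N and 1640 in M2N against 835 to 1125 in the other 6 mice, and miR-34b-3p at 1746 and 1660 against 922 to 1087. miR-449c-5p was lowest in M1N and M2N, at 51.7 and 56.4 CPM, against 68.6 to 96.8. The gonadal somatic miR-202 arms, both listed, summed to 3609 to 7021 CPM and were led by the 5p arm. The 3p arm was highest in M1N (202 CPM), M2N (181) and M2W (165), against 83.7 to 106 in the others. The 5p arm was lowest in M1N (3408) and M2N (3900) and highest in M2W (6856). The sum of the 4 white blood cell miRNAs, led by miR-223-3p, was 508 CPM in M1N, 402 in M2N and 443 in M2W, and 203 to 269 in the other 5 mice. Within that list miR-223-3p and miR-150-5p followed this order, while miR-142-3p was lowest in M1N (6.51 CPM) and M2N (13.7), against 15.4 to 21.5 in the other 6, and miR-142-5p (76.1 and 81.6 in the M pair) lay among the WD mice (74.7 to 104). The 4 miRNAs of endothelium and smooth muscle, led by miR-145-5p, summed to 8359 CPM in M2W, 6379 in M2N and 6248 in M1N, and to 4381 to 5881 in the others. Within that list miR-143-3p was lowest in M1N (165 CPM) and M2N (296), against 305 to 610 in the others. The 3 red blood cell miRNAs listed, of 5, were led by miR-451 and summed to 40.2 CPM in M2N and up to 151 in TN1. The 2 striated muscle miRNAs listed, of 3, were led by miR-1a-3p and summed to 26.7 to 51.7 CPM. The liver miRNA miR-122-5p stood at 15.4 CPM in TN1 and 13 in TN2, and at 0 in the other 6 mice.

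The members took 0.453% of all counts in M1N, 0.328% in M2N, 0.276% in TN1 and 0.256% in TN2. In WD mice they took 0.274% in M1W, 0.365% in M2W, 0.252% in M3W and 0.19% in M5W. The share was highest in M1N and lowest in M5W, and the groups overlapped, with a mean of 0.328% ± 0.0885 (SD, n = 4; after ±, SD is the standard deviation) on the standard diet and 0.27% ± 0.0725 (SD, n = 4) on the Western-like one. The WD mean was 0.823 of the SD mean, and 0.942 of it without M1N and 0.726 without M2W. Of the counts on all nuclear tRNAs, the members took 17.3% ± 1.98 (SD, n = 4) in SD and 15.3% ± 1.35 (SD, n = 4) in WD mice. Valine tRNAs held 50.7% of the members' counts over the 8 mice, alanine 35.2%, leucine 6.96%, methionine 5.42% and isoleucine 1.69%. Counts were not divided by length; the 93 gene sequences found, with 0 of LeuCAA or IleTAT, ran from 72 to 83 bases.

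Alanine tRNAs summed to 2011 CPM in M1N, 1211 in M2N, 824 in TN1 and 763 in TN2. The WD sums were 946 CPM in M1W, 1070 in M2W, 945 in M3W and 705 in M5W. The M pair of SD mice lay above all 4 WD mice, while the TN pair lay inside their range. Means were 1202 ± 575 (SD, n = 4) and 916 ± 153 (SD, n = 4) CPM, and per copy 35.4 and 27 CPM. The log2 fold change, WD minus SD, was -0.39 (SE 0.26, edgeR adjusted p = 0.466), and p = 0.514 in an exact permutation test of the 8 mice. It was -0.03 without M1N and -0.55 without TN2.

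Valine tRNAs summed to 2506 CPM in M1N, 1692 in M2N, 1488 in TN1 and 1290 in TN2. The WD sums were 1288 CPM in M1W, 2076 in M2W, 1184 in M3W and 806 in M5W. All SD mice lay above 3 of the WD mice, but M2W exceeded every SD mouse except M1N. Means were 1744 ± 533 and 1338 ± 533 CPM (SD, n = 4 each), or 87.2 and 66.9 CPM per copy, the highest per-copy level among the 5 amino acids in both groups. The log2 fold change was -0.38 (SE 0.26, edgeR adjusted p = 0.48; exact permutation p = 0.257). It was -0.16 without M1N and -0.67 without M2W.

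Leucine tRNAs summed to 293 CPM in M1N, 267 in M2N, 181 in TN1 and 170 in TN2, against 186 in M1W, 241 in M2W, 199 in M3W and 149 in M5W. Here too the M pair was above and the TN pair within the range of the WD mice. Means were 228 ± 61.5 and 194 ± 37.9 CPM (SD, n = 4 each), per copy 9.48 and 8.07, with a log2 fold change of -0.23 (SE 0.20, edgeR adjusted p = 0.58; exact permutation p = 0.371). Without M1N it was -0.09, and without M2W -0.35.

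Isoleucine tRNAs, the scarcest of the 5, summed to 69.6 CPM in M1N, 43.7 in M2N, 51.7 in TN1 and 50.5 in TN2. WD mice had 41.1 CPM in M1W, 52.6 in M2W, 48.8 in M3W and 51 in M5W. M1N alone stood above the rest, with the other 7 mice intermingled. Means were 53.9 ± 11.1 and 48.4 ± 5.11 CPM (SD, n = 4 each), per copy 3.85 and 3.46, and the log2 fold change was -0.15 (SE 0.18, edgeR adjusted p = 0.684; exact permutation p = 0.429), with -0.01 without M1N and -0.25 without M2N.

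Methionine tRNAs summed to 159 CPM in M1N, 194 in M2N, 148 in TN1 and 175 in TN2, and to 177 in M1W, 231 in M2W, 127 in M3W and 114 in M5W. The WD mice spread to both sides of the SD mice. Means were 169 ± 19.8 and 162 ± 53.4 CPM (SD, n = 4 each), per copy 9.94 and 9.54, with a log2 fold change of -0.06 (SE 0.21, edgeR adjusted p = 0.907; exact permutation p = 0.714). This sign turned without M2N, M3W or M5W, with values of 0.01, 0.04 and 0.08, and without M2W the value was -0.28.

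The same 3 mice, M1N, M2N and M2W, had the highest sums of alanine, valine and leucine tRNAs, of white blood cell miRNAs and of endothelium and smooth muscle miRNAs, though not every miRNA of these lists followed that order. The part of such cells in the tRNA values was not tested.

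None of the 5 amino acid sums and none of the 14 anticodon sums passed an adjusted p of 0.05 in edgeR, DESeq2 or limma-voom, and 0 of either reached an unadjusted p of 0.05 by any of the 3 tools. With 1 mouse left out edgeR gave 3 anticodon sums and 1 amino acid sum lower at that unadjusted p without TN2, 2 and 1 lower without M2W, and 1 anticodon sum higher without M1W. The other leave-outs gave 0. The share over all entries at that p was not taken for these runs. A p that misses the threshold does not show that values did not differ, and the SE of the amino acid sums, 0.18 to 0.26 on the log2 scale, sets how small a change these 8 mice could show. The smallest p that the exact test of 4 against 4 mice can give is 0.0286. In a bulk sample, fewer cells of a type and less RNA per cell cannot be told apart.

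**Figure D1:**
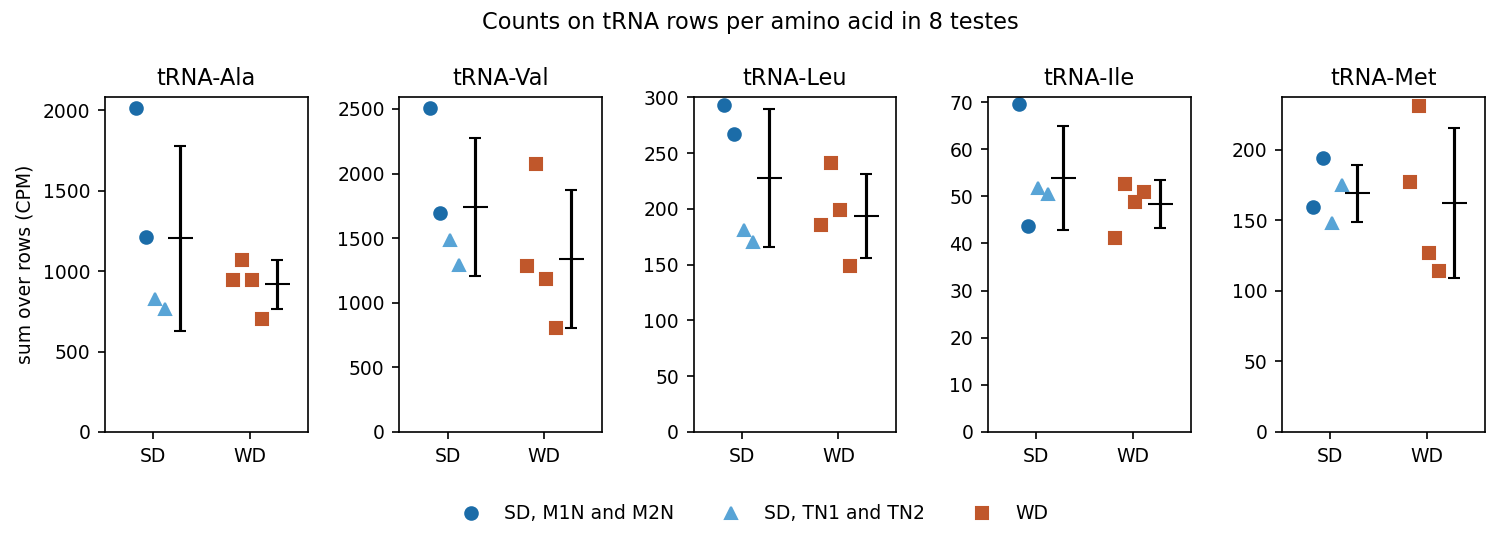
Summed level in CPM (vertical axes, each from 0) of tRNAs for Ala, Val, Leu, Ile and Met in each of the 8 testes. Circles are M1N and M2N, triangles TN1 and TN2, squares the 4 WD mice, and bars the group mean ± SD (n = 4); for Ala, M1N (2011) and M2N (1211) lie above all WD mice and TN1 (824) and TN2 (763) among them.

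By anticodon, the alanine counts came almost wholly from one sort. AlaTGC summed to 1856 CPM in M1N, 1127 in M2N, 729 in TN1 and 684 in TN2, and to 867 in M1W, 964 in M2W, 864 in M3W and 637 in M5W, with a log2 fold change of -0.39 (SE 0.27, edgeR adjusted p = 0.468). A single copy, chr5.tRNA1317-AlaTGC, gave 88.7% of that sum and 81% of all alanine counts. AlaAGC (13 copies) averaged 62.8 ± 23.7 CPM in SD and 50.3 ± 12.1 in WD mice (SD, n = 4 each), and AlaCGC (10 copies) 40.2 ± 11.4 and 33 ± 4.41 (SD, n = 4 each). Their log2 fold changes were -0.32 and -0.29. Without M1N, those of AlaTGC, AlaAGC and AlaCGC were -0.02, -0.04 and -0.08. The largest values with 1 mouse left out were -0.56 for AlaTGC and -0.39 for AlaCGC, both without TN2, and -0.50 for AlaAGC without M2W.

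Valine split unevenly by anticodon. ValCAC summed to 1453 CPM in M1N, 941 in M2N, 813 in TN1 and 680 in TN2, against 685 in M1W, 1212 in M2W, 638 in M3W and 417 in M5W. ValAAC summed to 875 CPM in M1N, 607 in M2N, 517 in TN1 and 439 in TN2, against 408 in M1W, 669 in M2W, 399 in M3W and 267 in M5W. For both, M1N was highest, M2W came next and M5W was lowest. The log2 fold changes were -0.39 (SE 0.29, edgeR adjusted p = 0.503) for ValCAC and -0.48 (SE 0.26, edgeR adjusted p = 0.382) for ValAAC. Single mice moved both: ValCAC was -0.14 without M1N and -0.74 without M2W, and ValAAC -0.26 and -0.77. ValTAC was level across the groups, at 178 CPM in M1N, 145 in M2N, 158 in TN1 and 172 in TN2, and 195 in M1W, 195 in M2W, 147 in M3W and 122 in M5W. M1W and M2W were highest there and M1N stood among the other mice. Its log2 fold change was 0.02 (SE 0.18, edgeR adjusted p = 0.97), and the difference from ValCAC and ValAAC was not tested.

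The 5 leucine anticodons ranged from LeuCAG, at 105 ± 33 CPM in SD and 91 ± 18.9 in WD mice, to LeuTAA, at 12.3 ± 1.58 and 15.9 ± 4.74 (SD, n = 4 each). LeuCAA, LeuTAG, LeuCAG and LeuAAG had log2 fold changes of -0.44, -0.35, -0.21 and -0.14, none past the threshold in edgeR. Without M1N these were -0.42, -0.18, 0.00 and -0.04. LeuCAA was -0.17 without M2N, -0.24 without M5W and -0.60 without M3W, LeuTAG -0.23 without M2N and -0.54 without M2W, LeuCAG -0.34 without M2W and -0.10 without M5W, and LeuAAG ranged from -0.37 without M2W to -0.02 without M5W. LeuTAA alone of the 5 had a positive one, 0.36 (SE 0.25, edgeR adjusted p = 0.481), or 0.56 without M1W and 0.23 without M5W. It stood at 10.6 CPM in M1N, 11.5 in M2N, 14.2 in TN1 and 13 in TN2, and at 9.2 in M1W, 15.8 in M2W, 18.9 in M3W and 19.6 in M5W. M2W, M3W and M5W were above all SD mice, and M1W was below them. Of the isoleucine anticodons, IleAAT averaged 42.7 ± 9.07 CPM in SD and 35.2 ± 4.28 in WD mice, and IleTAT 11.2 ± 3.13 and 13.1 ± 4.34 (SD, n = 4 each), with log2 fold changes of -0.27 and 0.22. Without M1N these were -0.14 and 0.39. IleAAT was -0.39 without M2N, and IleTAT 0.41 without M1W and 0.03 without M5W. The methionine copies share the anticodon CAT and so the sum MetCAT is the methionine sum.

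The copy chr1.tRNA698-LeuCAG had 79 counts in M1N, 68 in M2N, 39 in TN1 and 21 in TN2. The WD counts were 46 in M1W, 35 in M2W, 31 in M3W and 30 in M5W. In CPM these were 27.1, 21.7, 12.3 and 9.73 in the SD mice and 15.1, 15.3, 14.3 and 9.33 in the WD mice, in the same order. M1N and M2N were high and TN1 and TN2 lay among the WD mice. Means were 17.7 ± 8.1 and 13.5 ± 2.83 CPM (SD, n = 4 each), with a log2 fold change of -0.41 (SE 0.30, edgeR adjusted p = 0.503; exact permutation p = 0.514), with -0.14 without M1N and -0.59 without TN2. With factors and totals from tRNA counts alone the log2 fold change was -0.17. This copy made up 16.1% of the LeuCAG counts, the largest part of any of its 10 copies. Over the 8 mice its log2 CPM was most like that of chr1.tRNA993-LeuCAG (Pearson r = 0.97), chr11.tRNA399-ThrAGT (r = 0.97) and chr11.tRNA2022-AlaTGC (r = 0.96), a description only, since all points share their libraries and M1N and M2N set much of the range.

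The most abundant copy of each amino acid ranged widely in level. chr5.tRNA1317-AlaTGC had 4942 counts in M1N, 2999 in M2N, 2071 in TN1 and 1281 in TN2, and 2292 in M1W, 1981 in M2W, 1675 in M3W and 1834 in M5W. Only M1N and M2N exceeded all WD mice in CPM (1694 and 956, against 570 to 869), and the log2 fold change of -0.39 (SE 0.28, edgeR adjusted p = 0.482) became 0.01 without M1N and -0.57 without TN2. chr13.tRNA974-ValAAC had 950 counts in M1N, 838 in M2N, 575 in TN1 and 344 in TN2, and 481 in M1W, 489 in M2W, 350 in M3W and 356 in M5W. In CPM the M pair (326 and 267) lay above all WD mice, and M2W, at 214, was the one WD mouse above TN1 (181). The log2 fold change was -0.54 (SE 0.24, edgeR adjusted p = 0.332; exact permutation p = 0.171), with -0.34 without M1N and -0.70 without M2W. chr13.tRNA65-LeuCAA averaged 21 ± 8.99 CPM in SD and 16.7 ± 5.44 in WD mice, highest in M2N (33.2) and lowest in M5W (9.02). chr13.tRNA983-MetCAT averaged 21.4 ± 6.02 and 18.4 ± 4.52 CPM, and chr11.tRNA393-IleAAT 6.29 ± 1.38 and 5.73 ± 0.903 (SD, n = 4 each). The log2 fold changes of these last copies were -0.36, -0.23 and -0.16 in this order. Each rested much on 1 mouse: without M2N chr13.tRNA65-LeuCAA and chr13.tRNA983-MetCAT were both -0.04, and without M1N chr11.tRNA393-IleAAT was -0.03. Other single mice, left out, took these 3 copies as far as -0.50, -0.38 and -0.27. With all mice, the value of chr11.tRNA393-IleAAT became 0.05 with factors and totals from tRNA counts alone.

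Of the 109 copies, 76 passed the filter on low counts: 19 of Val, 18 of Ala, 18 of Leu, 14 of Met and 7 of Ile. With edgeR, 0 of these 76 had an adjusted p below 0.05, as did 0% of the 16955 small RNAs tested, where the smallest adjusted p was 0.318. DESeq2 and limma-voom also gave 0. At an unadjusted p of 0.05 edgeR gave 10 copies, all lower in WD mice, or 13.2% of those tested, DESeq2 gave 7 and limma-voom 9. With 1 mouse left out edgeR gave 5 without M1N, 9 without M2N, 16 without TN2, 17 without M2W, 8 without M3W and 5 without M5W, all lower. Without TN1 it gave 13 lower and 1 higher, and without M1W 6 lower and 2 higher. Over all small RNAs 14.6% reached that p in edgeR with all 8 mice, 7.83% lower and 6.76% higher. This share was not taken for DESeq2, limma-voom or the runs with 1 mouse left out. Counts from those runs therefore cannot be set beside other small RNAs. Of the 10, 7 were Val copies, which lie in 5 ValAAC and 2 ValCAC entries of chromosome 13, 2 were Leu and 1 was Ala. The groups did not overlap for 0 copies, with 2.68% of all small RNAs separated with WD lower and 3.01% with WD higher. The median log2 fold change of the copies was -0.35, with 61 of 76 below 0, beside -0.01 over all small RNAs. By amino acid it was -0.41 for Ala, -0.38 for Val, -0.13 for Leu, -0.16 for Ile and -0.08 for Met. With scaling by tRNA counts alone the copies' median was -0.14, with 44 of 74 below 0, and with 1 mouse left out it ran from -0.44 without TN2 to -0.10 without M1N. Many copies have near-equal counts, so they are not independent measurements. With only the highest entry of each group of near-equal copies kept, 9 of 66 reached the unadjusted p.

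The comparison was repeated against each pair of SD mice by name, with the same 4 WD mice in both. Each result thus rests on a pair of SD mice. M1N and M2N had already been seen to stand apart in these same counts. Calls against them describe that pair and are not a separate test of diet. Against M1N and M2N, 20.8% of 17495 small RNAs passed an adjusted p of 0.05 in edgeR, and 10.8% passed with WD mice lower. Of 86 copies tested, 12 passed, all lower in WD mice, with 6 of Leu, 4 of Ala, 2 of Val and 0 of Ile or Met, where 0 reached an unadjusted p of 0.05 either. Among the named copies these included chr1.tRNA698-LeuCAG (log2 fold change -0.86, edgeR adjusted p = 0.0222) and chr1.tRNA993-LeuCAG (-0.76, edgeR adjusted p = 0.0456). They also included chr5.tRNA1317-AlaTGC (-0.84, edgeR adjusted p = 0.0106) and chr13.tRNA974-ValAAC (-0.88, edgeR adjusted p = 0.00661). The largest change was that of chr14.tRNA703-LeuTAG, named after its values were seen, at -1.35 (edgeR adjusted p = 0.0359) on a mean of only 9.1 counts. It had 19 counts in M1N and 16 in M2N, against 3 to 8 in WD mice. With these it passed the filter on low counts here, but not with all 8 mice or against TN1 and TN2. Next came chr11.tRNA2022-AlaTGC, at -1.20 (edgeR adjusted p = 0.0032), with 142 counts in M1N, 94 in M2N, 49 in TN1 and 29 in TN2, and 39 to 50 in the WD mice. The median over the 86 copies was -0.53, with 75 below 0, beside 0.00 over all small RNAs. More copies passed the filter on low counts here than with all 8 mice (76). Since the smaller group is a pair, a copy could enter through high counts in M1N and M2N alone. How far that filter shaped the calls and the median was not tested. Of the sums, AlaTGC (-0.84, edgeR adjusted p = 0.00794), LeuCAA (-0.83, edgeR adjusted p = 0.0179), LeuTAG (-0.74, edgeR adjusted p = 0.0211) and ValAAC (-0.77, edgeR adjusted p = 0.0299) passed, as did all Ala tRNAs (-0.82, edgeR adjusted p = 0.00934) and all Leu tRNAs (-0.54, edgeR adjusted p = 0.0497). In the runs with anticodon sums 3728 of 17295 entries passed in all, and with amino acid sums 3743 of 17269.

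Against TN1 and TN2, 0.134% of 17168 small RNAs passed in edgeR, all 23 of them lower in WD mice: 18 miRNAs, 1 snRNA and 4 of the 77 copies tested here. These 4 were all valine copies of chromosome 13. The median of the copies was 0.03, with 34 below 0. Among the named copies, log2 fold changes were 0.26 for chr1.tRNA698-LeuCAG, 0.13 for chr1.tRNA993-LeuCAG and 0.23 for chr11.tRNA2022-AlaTGC. They were 0.25 for chr5.tRNA1317-AlaTGC and -0.09 for chr13.tRNA974-ValAAC. The sums were 0.21 for Ala, 0.14 for Leu, 0.01 for Met, -0.05 for Val and -0.08 for Ile, each with an edgeR adjusted p of 1. The difference between the pairs was not tested. The liver miRNA miR-122-5p, at 15.4 CPM in TN1 and 13 in TN2, moved with the TN pair. Red blood cell miRNAs summed to 151 and 116 CPM in TN1 and TN2, against 71.6 and 40.2 in M1N and M2N. Endothelium and smooth muscle miRNAs summed to 6248 and 6379 CPM in the M pair, against 4850 and 4381 in the TN pair. Their member miR-143-3p went the other way, at 165 and 296 CPM against 355 and 402. The summed white blood cell miRNAs (508 and 402 CPM) were high in the M pair, through miR-223-3p and miR-150-5p but not miR-142-3p, and so were miR-449a-5p and miR-34b-3p of the germ cell list. The part of these cells in the results was not tested.

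**Figure D2:**
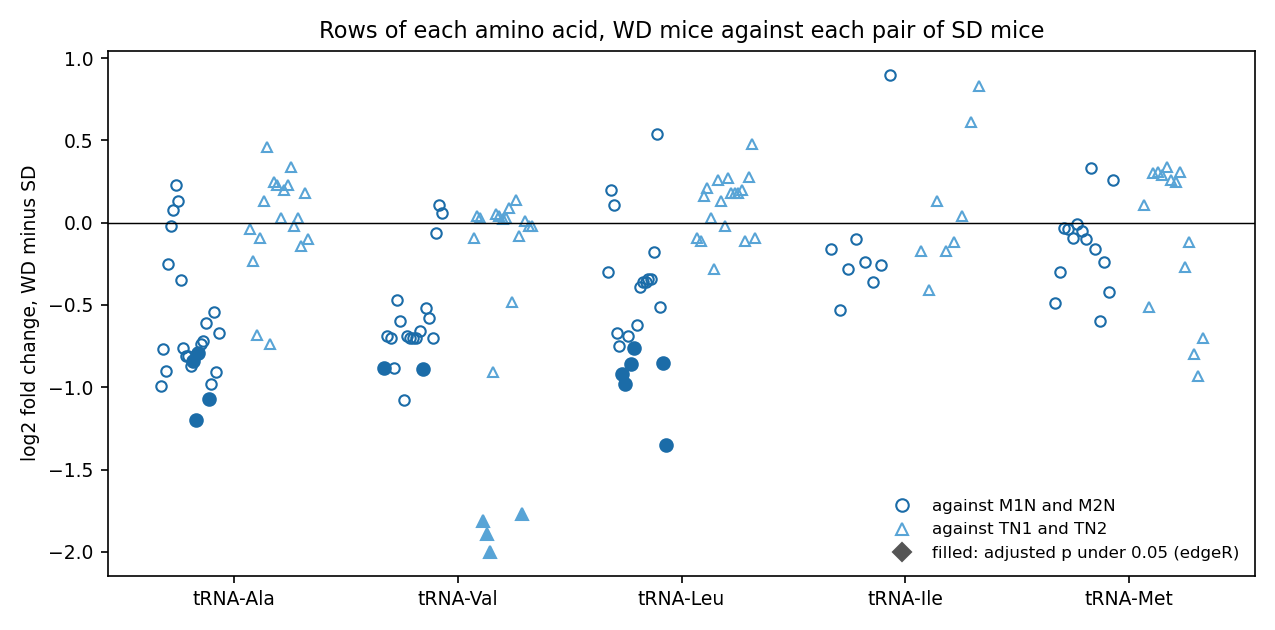
Log2 fold change, WD minus SD, of each tRNA copy (vertical axis) by amino acid, with WD mice set against M1N and M2N (circles) or against TN1 and TN2 (triangles). Filled points passed an adjusted p of 0.05 in edgeR, 12 against M1N and M2N and 4 against TN1 and TN2; the medians of all points were -0.53 and 0.03.

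The 4 valine copies that passed against the TN pair, and the copies whose sequences are compared further on, were named after their values were seen. chr13.tRNA93-ValAAC had 40 counts in M1N, 21 in M2N, 65 in TN1 and 39 in TN2, and 14 in M1W, 19 in M2W, 13 in M3W and 12 in M5W. TN1 and TN2 were high in CPM (20.5 and 18.1), M1N stood between (13.7), and M2N (6.7) lay among the WD mice (3.73 to 8.33). Its log2 fold change was -1.81 against the TN pair (edgeR adjusted p = 0.00689), -0.88 against the M pair (edgeR adjusted p = 0.0975) and -1.40 against all SD mice (SE 0.35, edgeR adjusted p = 0.318; exact permutation p = 0.0571). chr13.tRNA965-ValAAC had 25 counts in M1N, 15 in M2N, 59 in TN1 and 35 in TN2, against 8 to 15 in WD mice, and a log2 fold change of -2.00 against the TN pair (edgeR adjusted p = 0.00618). It was -0.60 against the M pair (edgeR adjusted p = 0.312) and -1.44 against all SD mice (edgeR adjusted p = 0.318). chr13.tRNA962-ValAAC had 26, 14, 59 and 36 counts in the SD mice in that order, against 8 to 17, and -1.89 (edgeR adjusted p = 0.0111), with -0.47 against the M pair (edgeR adjusted p = 0.45) and -1.32 against all SD mice (edgeR adjusted p = 0.318). chr13.tRNA97-ValCAC had 35, 18, 61 and 38, against 12 to 18, and -1.77 (edgeR adjusted p = 0.00763), with -0.70 against the M pair (edgeR adjusted p = 0.194) and -1.31 against all SD mice (edgeR adjusted p = 0.318). In all of these TN1 had the most counts. The order of the SD mice was another in the abundant ValAAC and ValCAC copies, where M1N had the most, while in chr19.tRNA110-ValTAC TN1 had 159 counts and M1N 152. The 4 are not separate measurements, since chr13.tRNA962-ValAAC and chr13.tRNA965-ValAAC differed by at most 2 counts in any mouse. Close counts were also seen across anticodons. chr13.tRNA93-ValAAC and chr13.tRNA97-ValCAC had 65 and 61 in TN1, 39 and 38 in TN2, and 13 each in M3W and 12 each in M5W.

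**Figure D3:**
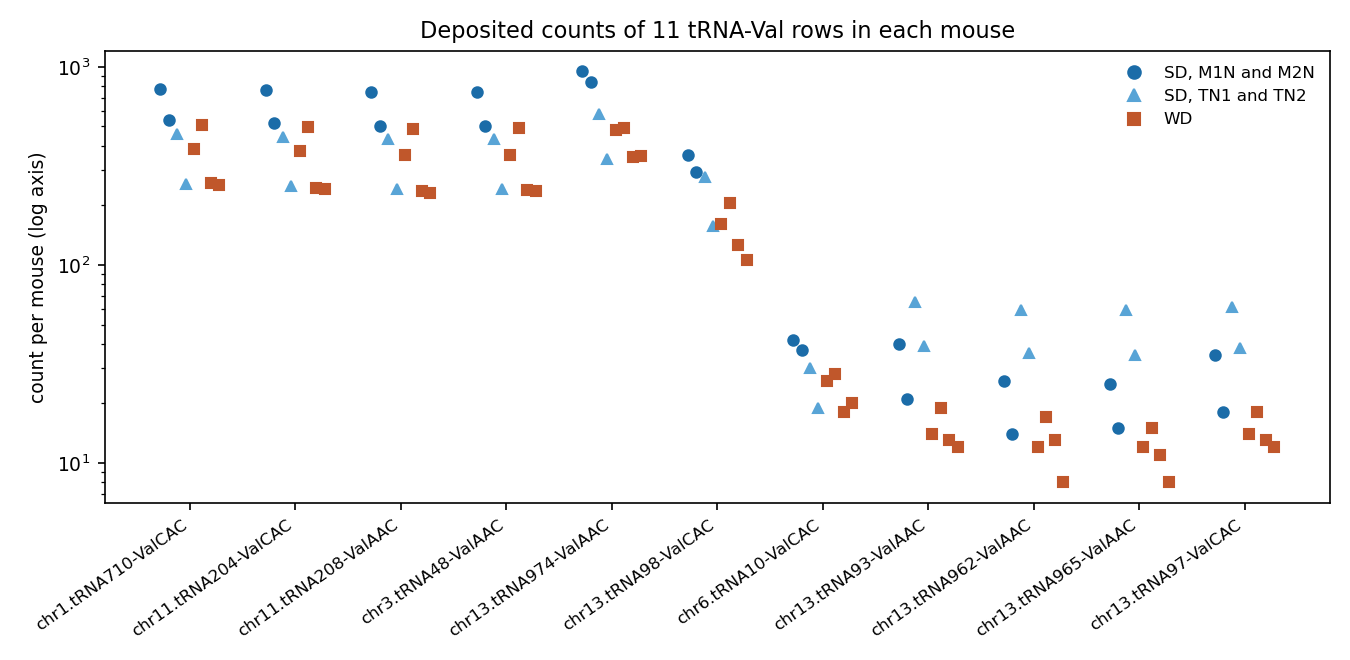
Deposited counts per mouse (vertical log axis) of 11 valine tRNA copies. Circles are M1N and M2N, triangles TN1 and TN2, and squares the 4 WD mice; in the abundant copies on the left M1N is highest (776 counts in chr1.tRNA710-ValCAC), and in the 4 copies on the right TN1 is highest (65 counts in chr13.tRNA93-ValAAC, against 12 to 19 in WD mice).

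Some copies had the same or nearly the same counts. Of 506 pairs of copies with the same anticodon, 1 was equal in all 8 mice and 23 were near-equal, which means a difference in every mouse of at most 5% of the larger count or 2 counts. Taken from the highest mean count down, each entry was placed with the first one it was near-equal to. This gave 12 groups of more than 1 entry, which hold 28 of the 109, and some near-equal pairs lie across groups. Near-equal counts also crossed anticodons, in 6 pairs with a mean of at least 20 counts. How the authors counted a read with several matches is not given in the sources used here, so the level of a single copy is uncertain, and whether a sum counts a shared read more than once was not tested.

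The gene sequences show how alike the copies are. Since the authors' alignment allowed a few mismatches, reads can also be shared between genes that differ by few bases. tRNA genes of these anticodons were looked for in the NCBIM37 genome (mm9) by their cloverleaf structure, and 93 were found, with 51 distinct sequences. The search found 0 genes for LeuCAA and IleTAT. Of the 109 entries 32 could be matched to 1 sequence, where the table, the genome and RefSeq held the same number of genes for a chromosome and anticodon. chr1.tRNA710-ValCAC lies at chr1:173041574-173041646 on the + strand, chr11.tRNA208-ValAAC at chr11:48670139-48670211 on the + strand and chr6.tRNA10-ValCAC at chr6:10050371-10050443 on the + strand, each outside any gene of the GENCODE M1 annotation. They are shown with a ValAAC gene of chromosome 13 at chr13:23377270-23377342 on the + strand, in an intron of the transcript 4930557F10Rik, which runs on the other strand. The sequences are the DNA from 5′ to 3′ with the anticodon in capitals.
chr1.tRNA710-ValCAC: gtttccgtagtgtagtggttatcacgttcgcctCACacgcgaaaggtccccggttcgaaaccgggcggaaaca
chr11.tRNA208-ValAAC: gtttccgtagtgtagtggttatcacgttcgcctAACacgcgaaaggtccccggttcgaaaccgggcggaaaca
chr6.tRNA10-ValCAC: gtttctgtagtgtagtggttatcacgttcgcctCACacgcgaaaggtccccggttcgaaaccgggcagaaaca
ValAAC gene on chromosome 13: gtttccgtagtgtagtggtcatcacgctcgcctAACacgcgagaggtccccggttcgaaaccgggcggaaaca

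Counting positions from 1 at the 5′ end of the gene, chr1.tRNA710-ValCAC and chr11.tRNA208-ValAAC differ by C34A alone, in the anticodon, and share their first 33 bases. Their mean counts were 429.5 and 404.6, apart by at most 40 counts in any mouse. chr11.tRNA204-ValCAC has the sequence of chr1.tRNA710-ValCAC, and a mean of 417.5 counts. chr3.tRNA48-ValAAC has that of chr11.tRNA208-ValAAC, and their means of 405.1 and 404.6 differed by at most 3 counts in any mouse. By contrast chr6.tRNA10-ValCAC, which differs from chr1.tRNA710-ValCAC by C6T and G67A, had a mean of 27.5 counts. A read wholly in the shared stretch matches both genes. With the few mismatches that the alignment allowed, a read across a differing base can match both as well. To which sum such reads went was not tested. The chromosome 13 gene differs from chr11.tRNA208-ValAAC by T20C, T27C and A43G. On that chromosome 5 ValAAC and 4 ValCAC genes were found. Of these, 3 differ from chr11.tRNA208-ValAAC, and 1 from chr1.tRNA710-ValCAC, by T20C, T27C and A43G, some with A69G as well. The table has 5 ValAAC and 5 ValCAC entries there, of which 3 and 1 were high in TN1 and TN2. Which entry belongs to which of these genes was not established. ValTAC has 1 sequence in its 3 genes, on chromosomes 19 and X, and its copies had mean counts of 168.5, 140.2 and 140.2. Some other entries with the same sequence had less like counts. chr11.tRNA1823-IleAAT and chr11.tRNA393-IleAAT had means of 7.0 and 16.5, and chr3.tRNA29-AlaAGC and chr5.tRNA110-AlaAGC means of 9.8 and 15.4.

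For the abundant alanine copy and the leucine copy on chromosome 1, the genes are known only as a group. Chromosome 5 has a pair of AlaTGC genes, at chr5:125884620-125884691 on the - strand and chr5:125889842-125889913 on the + strand, both outside annotated genes, and the table has chr5.tRNA1317-AlaTGC, with a mean of 2384.4 counts, and chr5.tRNA702-AlaTGC, with 9.8. They differ by G56A. The first is the same as the gene of chr11.tRNA2022-AlaTGC, at chr11:48647931-48648002 on the - strand in an intron of Trim7, whose mean count was 61.6. Chromosome 1 has 5 LeuCAG genes with 2 sequences, one at chr1:172968745-172968827 on the + strand and one shared by 4 genes, such as chr1:172996115-172996197 on the + strand, which differ by T77C. The table has 5 LeuCAG entries there. chr1.tRNA698-LeuCAG and chr1.tRNA993-LeuCAG had mean counts of 43.6 and 41.9, and the other 3 of 28.1 to 28.2. The sequences are given with the anticodon in capitals, to show how small the differences are between these genes. Which entry belongs to which of them was not established.
AlaTGC gene at 125884620: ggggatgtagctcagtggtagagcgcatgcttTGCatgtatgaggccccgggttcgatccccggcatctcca
AlaTGC gene at 125889842: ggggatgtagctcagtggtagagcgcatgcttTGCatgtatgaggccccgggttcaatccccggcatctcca
LeuCAG gene at 172968745: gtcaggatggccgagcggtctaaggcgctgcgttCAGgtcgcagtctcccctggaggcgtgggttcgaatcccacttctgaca
LeuCAG gene at 172996115: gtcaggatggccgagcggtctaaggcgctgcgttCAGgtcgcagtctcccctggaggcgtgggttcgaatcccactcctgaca

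The initiator tRNA of methionine, which begins each protein, could be told by its sequence. chr3.tRNA792-MetCAT, at chr3:90279782-90279853 on the - strand and outside annotated genes, has the initiator sequence, with 72 bases. The same sequence was found in 7 genes, the others on chromosome 13, so reads of this entry cannot be assigned to the gene on chromosome 3 alone. It is shown with the anticodon in capitals, since the entries' names do not mark the initiator.
chr3.tRNA792-MetCAT: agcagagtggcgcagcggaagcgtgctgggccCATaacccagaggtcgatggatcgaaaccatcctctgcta
This copy averaged 12.9 CPM in SD and 13.6 in WD mice, a log2 fold change of 0.06 (edgeR adjusted p = 0.927), and did not differ beyond its spread in this test. Its log2 fold change was -0.10 against M1N and M2N and 0.25 against TN1 and TN2.

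The other nuclear tRNAs gave 0 calls in edgeR among 151 tested of 253, with 6 lower and 2 higher in WD mice at an unadjusted p of 0.05, and a median log2 fold change of -0.10. The medians were 0.23 for 28 Gly copies, -0.13 for 36 Glu and Asp copies, -0.20 for 34 Lys, Arg and His copies and 0.02 for the 53 remaining copies tested. At that p, 0 Gly copies were reached, 3 of Glu and Asp lower, 2 of Lys, Arg and His lower, and 1 lower and 2 higher of the rest. By DESeq2 and limma-voom, 0 small RNAs of the whole table passed. The difference between these medians and that of the aliphatic and methionine copies (-0.35) was not tested. Against M1N and M2N, 12 of 161 other nuclear tRNAs passed in edgeR, all lower in WD mice, with a median of -0.27. Against TN1 and TN2, 0 of 151 passed, with a median of 0.09.

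Mitochondria make their own tRNAs for the same amino acids. Of mt-Ta (Ala), mt-Tv (Val), mt-Tl1 and mt-Tl2 (Leu), mt-Ti (Ile) and mt-Tm (Met), 0 of 6 passed in edgeR, and mt-Tv and mt-Tm reached an unadjusted p of 0.05, both lower in WD mice. Over all small RNAs 14.6% reached that p, 7.83% lower and 6.76% higher in WD mice. mt-Tm had 387 CPM in M1N, 258 in M2N, 210 in TN1 and 202 in TN2, and 171 in M1W, 216 in M2W, 152 in M3W and 137 in M5W. M2W alone of the WD mice exceeded TN1 and TN2, and the log2 fold change was -0.65 (SE 0.22, edgeR adjusted p = 0.318), or -0.93 against M1N and M2N (edgeR adjusted p = 0.00407) and -0.29 against TN1 and TN2 (edgeR adjusted p = 1). mt-Tv had 130 CPM in M1N, 105 in M2N, 157 in TN1 and 142 in TN2, and 132, 93.4, 60.4 and 91.5 in the WD mice M1W, M2W, M3W and M5W. Here the TN pair was highest, and the log2 fold change was -0.50 (SE 0.21, edgeR adjusted p = 0.326). The groups did not overlap for mt-Tl2, at 6.71 ± 0.608 and 5.12 ± 0.718 CPM (SD, n = 4 each), on a mean of 16.5 counts. Over all small RNAs 2.68% were separated with WD lower and 3.01% with WD higher. The log2 fold change of mt-Tl2 was -0.39 (edgeR adjusted p = 0.47). mt-Tl1, mt-Ta and mt-Ti had 0.06, 0.04 and -0.07.

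Of other RNAs that polymerase III transcribes, 97 were listed (58 of 5S rRNA, 32 of U6, 5 of Y RNA and 2 of vault RNA). RNase P RNA, RNase MRP RNA, 7SL and 7SK were matched by name to 0 entries. Of the 46 tested, 0 passed in edgeR, 0 reached an unadjusted p of 0.05, and the median log2 fold change was 0.10. That median is mostly of the 40 5S rRNA entries (0.12), while 3 Y RNA entries had a median of -0.21, 1 vault RNA entry -0.19 and 2 U6 entries -0.77.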

How the data were processed

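The deposited values are raw counts per small RNA, with 1 column per mouse. The authors sequenced testis small RNA on a SOLiD instrument, trimmed the reads, aligned them to mm9 with Bowtie, a few mismatches allowed, and annotated them with miRBase, Rfam and a non-coding RNA database. Neither the program that counted them nor the treatment of multiply aligned reads is stated in the sources used here.

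Members and lists were chosen with earlier results of these data known. Counts were tested with edgeR 4.0.16 in R 4.3.3 (TMM factors, filterByExpr with a minimum count of 10 and a total of 15, quasi-likelihood test, two-sided, Benjamini-Hochberg over all small RNAs tested, threshold 0.05), which was checked on simulated data. For sums, the nuclear tRNA entries of each anticodon or amino acid were replaced by 1 summed entry. DESeq2 1.42.0, limma-voom (limma 3.58.1), other scalings, filters and sample sets were alternatives. Exact permutation tests, two-sided, used log2 CPM over 70 assignments. Likeness used a pseudocount of 0.5 CPM. Named were chr1.tRNA698-LeuCAG, the most abundant copy per amino acid, copies past the threshold (0), up to 5 copies with groups that did not overlap (0), every sum, and the 3 nuclear tRNAs most like chr1.tRNA698-LeuCAG. Mitochondrial tRNAs were named through GENCODE M1, which held 470 of the table's 556 Ensembl transcript names. Python 3.11.15 and matplotlib 3.10.9 drew the figures.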

Additional observations from a re-analysis of the deposited data

Results flagged for a closer look

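One of 62 groups of 4 mice tested held a mouse far from the other 3, where chance gives about 1 in 20. The IleAAT sum was 41.7 CPM in M2W and 32.9 in M1W, 33.2 in M3W and 33.3 in M5W. It lay inside the range of the SD mice (32.5 to 54.5 CPM).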

How the results depend on the processing

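With all 8 mice, 0 copies, 0 anticodon sums and 0 amino acid sums passed in edgeR, and also in DESeq2, limma-voom, every other scaling and filter tried, every run with 1 mouse left out, and with equal or near-equal copies counted once (the last chosen after seeing the data). At an unadjusted p of 0.05, edgeR gave 10 copies and 0 sums, DESeq2 7 and 0, and limma-voom 9 and 0. With 1 mouse left out, edgeR gave 3 anticodon sums and 1 amino acid sum at that p without TN2, 2 and 1 without M2W, and 1 and 0 without M1W. Over all small RNAs 14.6% reached that p in edgeR with all 8 mice, a share not taken for the other runs. The exact test passed 0 of 6 named copies in every setting run.

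Against M1N and M2N, 12 of 86 copies passed, beside 3642 of 17495 small RNAs. So did 4 of 14 anticodon sums, beside 3728 of 17295 entries, and 2 of 5 amino acid sums, beside 3743 of 17269. Against TN1 and TN2, 4 of 77 copies passed, beside 23 of 17168 small RNAs. The cause was not tested. Against TN1 and TN2 the log2 fold change turned positive for chr1.tRNA698-LeuCAG (0.26), chr5.tRNA1317-AlaTGC (0.25), chr13.tRNA65-LeuCAA (0.21), chr13.tRNA983-MetCAT (0.11), AlaTGC (0.24), LeuCAA (0.07), LeuCAG (0.18), LeuTAG (0.16), MetCAT (0.01), Ala (0.21), Leu (0.14) and Met (0.01). Signs also turned for chr11.tRNA393-IleAAT with tRNA scaling (0.05), for ValTAC with limma-voom (-0.01), and, with the top copy in place of the sum, for AlaCGC (0.13), IleTAT (-0.18) and ValTAC (-0.02). With 1 mouse left out, chr5.tRNA1317-AlaTGC ranged from -0.57 to 0.01, MetCAT and Met from -0.28 to 0.08, and ValTAC from -0.08 to 0.14. With factors and totals from tRNA counts alone, chr1.tRNA698-LeuCAG was -0.17, chr5.tRNA1317-AlaTGC -0.14 and chr13.tRNA974-ValAAC -0.34. On that scaling chr13.tRNA65-LeuCAA was -0.16 and chr13.tRNA983-MetCAT -0.05. The sums were -0.20 for Ala, -0.28 for Val, -0.11 for Leu, -0.03 for Ile and -0.04 for Met.

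Shared numbers in the mouse names were not taken to pair the animals, which are different mice whose labels do not say what the number marks. Deviations correlated at -0.07 for M1N with M1W and 0.23 for M2N with M2W, the same as for M2N with M1W (-0.07) and M1N with M2W (0.23). With the number as a replicate block in these 4 mice, 1 of 84 copies passed (chr11.tRNA2022-AlaTGC, -1.13), beside 1176 of 17036 small RNAs, with 0 sums of either kind, and signs turned for IleTAT (-0.46), MetCAT (0.21) and Met (0.21).

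Depth limits the scarce copies, since 76 of 109 passed the filter.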
